A study of Mus musculus with 48 samples.

Results

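Twelve-hour rhythms were looked for in the total RNA of mouse liver, in the 24 total RNA libraries of a series of 48. The animals were male C57BL/6JRj mice aged 11 to 12 weeks, kept for 2 weeks on 12 h of light and 12 h of darkness and killed every 2 h through 1 day. At each of 12 zeitgeber times (ZT0 is lights on, ZT12 lights off) there were 2 pools, each a mixture of liver lysate from 2 animals, and every lysate pool also gave 1 ribosome footprint library. No mutant, drug or diet was compared, so the hour of the day is the only variable of the design. Expression values are RPKM, in which reads are scaled to transcript length and to library depth. For each gene, log2(RPKM + 0.1) was fitted with a 24 h and a 12 h cosine and sine together, and the 12 h terms were tested with limma. The test covered 9445 genes with a mean RPKM of at least 1 in both assays, and a gene was called at a Benjamini-Hochberg adjusted p under 0.05 over all of them. Its 12 h fold is the ratio of crest to trough of the 12 h part alone. Because 0.1 is added before the log, the change of genes with few reads comes out smaller than it was. A gene was said to have 2 peaks a day when it was called, its whole fitted curve had 2 maxima, and the lower maximum stood at least 1.2-fold above the higher minimum. Only 1 day was sampled, so each peak was seen once, in the 2 pools of each time point. The pools are separate lysates, and p-values measure the spread between them around the fitted curve.

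Most rhythmic liver transcripts crest once a day, under the circadian clock and the feeding cycle. A smaller set has been described in mouse liver with a second crest on the opposite side of the day, and much of that set serves the endoplasmic reticulum (ER), where secreted proteins are folded, glycosylated and sent on to the Golgi. Unfolded protein in the ER activates the sensors IRE1, PERK and ATF6, which raise ER chaperones through XBP1 and ATF6 at promoter elements such as the ER stress element, while unfolded protein in the cytosol acts through heat shock factors. A 12 h term does not by itself mean 2 peaks: a single daily peak that is sharper or more lopsided than a cosine also needs one, and for this reason the shape of the curve was read in every called gene.

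The 7 ER chaperone genes in which an ER stress element was found are shown first, with Herpud1 of ER-associated degradation, because the element stood upstream of genes called and not called for 12 h terms. The stretches come from RefSeq's GRCm38.p6 promoter windows, which run from 250 bases before to 50 bases after each gene's start, and are written 5′ to 3′ along the gene's own strand. Capitals mark the fixed letters of the ER stress element, CCAAT and CCACG with any 9 bases between them, read in either direction. In Herpud1 they mark those of the related ERSE-II, ATTGG and CCACG with any 1 base between them, which shares the CCACG and, on the other strand, the CCAAT of the first. The first 4 genes were called for 12 h terms and the last 4 were not.
Hspa5 (chr2:34772010-34772058, plus strand): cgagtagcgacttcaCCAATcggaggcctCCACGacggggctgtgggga
Creld2 (chr15:88819505-88819553, plus strand): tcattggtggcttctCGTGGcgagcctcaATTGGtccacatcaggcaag
Hsp90b1 (chr10:86705518-86705671, minus strand): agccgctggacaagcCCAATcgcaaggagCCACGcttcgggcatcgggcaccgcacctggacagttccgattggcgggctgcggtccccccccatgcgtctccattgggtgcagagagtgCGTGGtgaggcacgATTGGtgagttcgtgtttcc
Herpud1 (chr8:94386362-94386402, plus strand): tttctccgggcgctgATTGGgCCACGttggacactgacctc
Dnajc3 (chr14:118937812-118937860, plus strand): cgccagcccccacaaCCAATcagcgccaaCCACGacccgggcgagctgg
Calr (chr8:84847060-84847108, minus strand): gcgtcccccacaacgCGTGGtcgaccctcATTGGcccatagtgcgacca
Pdia6 (chr12:17266476-17266524, plus strand): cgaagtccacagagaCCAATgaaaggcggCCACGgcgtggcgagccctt
Canx (chr11:50325785-50325833, minus strand): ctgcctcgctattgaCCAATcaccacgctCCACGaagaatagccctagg
Windows were found for 7500 of the 9445 genes tested. The ER stress element was in 13 of them, 0.173%, and in 39 of all 32851 windows of the same length, 0.119%. Among ER chaperone genes with a window it was in 3 of 5 that were called (Hspa5, Creld2 and Hsp90b1) and in 4 of 21 that were not. Of the 131 genes with 2 peaks a day that had a window, 3 held it, 2.29%, and they were those same 3 called ER chaperones. ERSE-II was in 8 of the 7500 windows. The core of the unfolded protein response element, TGACGTGG, was in 76 of the 7500, 1.01%, and in 3 of the 131, 2.29%. The heat shock element searched, GAA, TTC and GAA with any 2 bases between each, on either strand, was in 42 of the 7500, 0.56%, in 2 of 9 called heat shock genes and in 3 of 17 that were not called. The E-box CACGTG was in 12.1% of the 7500 windows and 14.5% of the 131, and the D-box TTATGTAA in 0.747% and 0 of 131. The cAMP element TGACGTCA was in 3.57% and 1.53%. These are matches of letters, and no binding was measured.

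The deposited files give no read counts, but most values are whole multiples of 1 read's worth, from which library depth was estimated at 3.67 to 25.9 M reads in total RNA (median 12.2 M) and 13.0 to 44.6 M in footprints. The shallowest was the second ZT18 pool. Depth was uneven over the hours: total RNA pools of ZT12 to ZT20 had 3.67 to 11.35 M reads and those of the other times 7.72 to 25.9 M. Hepatocyte markers were high in every total RNA pool, their sum lying between 68200 and 106800 RPKM. Transcripts of pancreatic acinar cells (11 of 22 markers listed, the rest, Prss1 and Amy2a5 among them, not) stood apart. Their sum was 182.5 RPKM or more in 6 pools, namely both ZT2 pools, the first ZT4 and ZT6 pools and the second ZT8 and ZT16 pools, against 5.78 to 26.9 in the other 18. The largest sums were 879.6 at ZT2 and 790.1 at ZT6. None of these markers was called for 12 h terms, although their median fitted 12 h fold was 21.8. The 24 h terms of the same fits were called in 10 of the 11. Because ZT2 lies near one crest of many genes below, values without the 6 pools are given beside the results. In bulk tissue, fewer cells of a type and less RNA per cell cannot be told apart.

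A 12 h component was called in 477 of 9445 genes, which is 5.05%, and 2 peaks a day in 166, which is 1.76%. Of the other called genes, 272 had 2 maxima that failed the 1.2-fold rule and 39 had a single maximum. Most were modest: the median 12 h fold was 1.51 among the 166, 1.37 among all called genes and 1.16 among all genes tested, and only 28 called genes reached 2-fold. The 24 h terms of the same fits were called in 4473 genes, 47.4%. Among the 166, the 24 h terms were also called in 75, and the 12 h part was the wider of the 2 parts in 145.

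The 2 peaks lay on opposite sides of the light cycle. In 160 of the 166 genes 1 peak fell in the light and 1 in the dark, the median distance was 11.6 h (range 9.4 to 12), and the higher peak fell in the dark in 123. In 107 of the 166 genes (64.5%) all 4 pools at the sampled times nearest the peaks lay above all 4 pools nearest the troughs, against 10.7% of all genes tested. Since the fit to the same pools chose these genes and their hours, those shares only describe them. In 75 genes the 12 h part crested at ZT0 to ZT4 and ZT12 to ZT16, the 4 h after lights on and lights off. The first 2 h of these held 18.1% of the 166 and the next 2 h 27.1%, against 12.7% and 18.3% of all genes tested. In 42 genes it crested at ZT8 to ZT10 and ZT20 to ZT22, which is 25.3% of the 166 and near the 21.6% of all genes tested. Read as hours of the 12 h cycle, which starts at both ZT0 and ZT12, the first 5 h held 90 of the 166 genes (54.2%), against 39.5% of all genes tested. Of all genes tested, 182 (1.93%) were both called and crested in those 5 h.

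**Figure D1:**
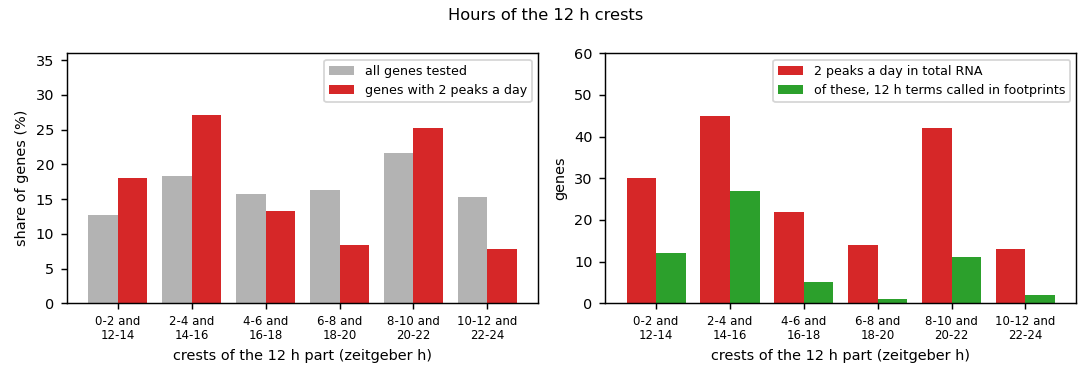
Hours of the 12 h crests. Left, the share of genes (%) whose 12 h part crests in each 2 h bin of the 12 h cycle, for all 9445 genes tested (grey) and the 166 genes with 2 peaks a day (red). Right, the number of 2-peak genes (red) and of those also called for 12 h terms in footprints (green), which is 27 of 45 in the ZT2 to ZT4 bin and 11 of 42 in the ZT8 to ZT10 bin.

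Genes of the ER and the secretory route crested soon after lights on and again soon after lights off. Over 5 lists (ER chaperones, unfolded protein response and ER-associated degradation, translocation and signal peptide cleavage, N-glycosylation, and vesicle coats) 31 of 167 genes were called, 18.6% against 5.05% of all genes tested, and 21 had 2 peaks a day, 12.6% against 1.76%. The 12 h part of 29 of those 31 crested in the first 5 h of the 12 h cycle. Among all 167 genes, called or not, 120 did so (71.9%, against 39.5% of all tested).

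Of 33 ER chaperones and folding enzymes, 8 were called: Creld2, Dnajb9, Manf, Hspa5, Hyou1, Hsp90b1, Erp44 and Ero1l. Their median 12 h fold over all 33 was 1.24, against 1.16 over all genes. Hspa5 (chr2:34771970-34777547, plus strand, GRCm38), which encodes BiP, the main Hsp70 chaperone of the ER, is the abundant example. Its pools measured 727 and 651 at ZT0, 873 and 692 at ZT2, 757 and 389 at ZT4, 324 and 464 at ZT6, 494 and 381 at ZT8 and 416 and 347 at ZT10 (RPKM) in the light. Through the dark phase they measured 476 and 499.7 at ZT12, 1052 and 719 at ZT14, 764 and 826 at ZT16, 783 and 705 at ZT18, 539.6 and 499 at ZT20 and 368 and 362 at ZT22. Both pools at ZT0, ZT2, ZT14, ZT16 and ZT18 lay above all pools at ZT6, ZT8, ZT10, ZT12, ZT20 and ZT22, and the ZT4 pools lay apart from each other. This gave a 12 h fold of 1.91 (95% interval 1.49 to 2.44, limma adjusted p = 0.00947), with fitted peaks at ZT2.4 and ZT15.3.

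Creld2 (chr15:88819646-88826683, plus strand), an ER protein with disulfide isomerase activity, had the widest 12 h swing of the list. From lights on to ZT10 the pools of Creld2 gave 136 and 107 at ZT0, 138 and 120.0 at ZT2, 148 and 49.2 at ZT4, 49.1 and 77 at ZT6, 63 and 35.8 at ZT8 and 53 and 32.2 at ZT10 (RPKM). From ZT12 they gave 58.4 and 72.9 at ZT12, 221 and 128 at ZT14, 109 and 165 at ZT16, 113 and 108 at ZT18, 77.8 and 95.1 at ZT20 and 48.4 and 40.00 at ZT22. The fitted 12 h fold was 2.75 (95% interval 1.89 to 3.99, limma adjusted p = 0.00907), with peaks at ZT2.4 and ZT15.4. Here too the 2 pools at ZT4 differed widely, the higher being the first, which held pancreatic transcripts. The single highest value was a ZT14 pool. Manf, a secreted factor that is retained in the ER with BiP, had a 12 h fold of 2.07 (limma adjusted p = 0.00947) and peaks at ZT2.3 and ZT15.0.

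Dnajb9 (chr12:44205559-44210326, minus strand), which encodes ERdj4, a co-chaperone of BiP, had earlier fitted peaks than Hspa5. In the light, Dnajb9 stood at 89.3 and 75.9 at ZT0, 88.1 and 78.8 at ZT2, 41.2 and 37.3 at ZT4, 34.3 and 45.8 at ZT6, 74.5 and 68 at ZT8 and 61.9 and 43.9 at ZT10 (RPKM). After lights off the pools stood at 96 and 119 at ZT12, 160.4 and 127 at ZT14, 93.8 and 77.7 at ZT16, 62.2 and 60.7 at ZT18, 32.1 and 38 at ZT20 and 29.1 and 34.3 at ZT22. Its pools at ZT0, ZT2 and ZT12 to ZT16 lay above all other pools, the lowest of them being 75.9 and the highest of the rest 74.5. The 12 h fold was 2.38 (95% interval 1.73 to 3.29, limma adjusted p = 0.00919), with peaks at ZT1.8 and ZT13.5. The calls of Creld2, Hspa5, Manf and Dnajb9 held without any single pool and without any single time point. Those of Hyou1 (12 h fold 1.52), Hsp90b1 (1.44) and Erp44 (1.31) were close to the threshold: they ended without any of 13, 12 and 10 single pools of the 24, with adjusted p up to 0.0979, 0.0983 and 0.0979. Ero1l, the oxidase that feeds disulfide formation, had a 12 h fold of 1.27 (limma adjusted p = 0.0166), which was lost without ZT2, ZT16, ZT20 or ZT22 (adjusted p up to 0.0669). Among the 25 that were not called, Ero1lb had a 12 h fold of 1.53 (limma adjusted p = 0.0687), Txndc11 1.34 (0.0967) and Pdia4 1.28 (0.0624), as wide as some that were called. At the flat end, Canx lay between 288 and 388 RPKM in all pools with a 12 h fold of 1.15, P4hb had a 12 h fold of 1.08 and Ppib 1.07.

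Further along the route the same hours recurred. Of 34 genes of the unfolded protein response and ER-associated degradation 7 were called. Eif2ak3, which encodes the ER stress sensor PERK, had a 12 h fold of 1.59 and peaks at ZT1.0 and ZT12.6. Selenos, Edem3 and Ubxn4, which take part in clearing misfolded ER proteins, had 12 h folds of 1.37, 1.41 and 1.4. Herpud1, an ER stress-induced part of the degradation complex, was called with a 12 h fold of 1.63 (limma adjusted p = 0.0115), but its lower peak stood 1.17-fold above the higher trough and so missed the rule. Herpud1 stood at 232 and 208 RPKM at ZT0, 127 and 169 at ZT4, 500.0 and 434 at ZT14 and 174 and 155 at ZT22. Edem3's call ended without the first pool of ZT2, ZT14, ZT16 or ZT22 (limma adjusted p up to 0.0728) or without any of 7 time points (up to 0.12). Eif2ak3's ended without ZT2 (0.0563) or ZT6 (0.0535) and Ubxn4's without ZT2 (0.0502) or ZT22 (0.0744).

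Of 31 N-glycosylation genes 6 were called, 4 of them with 2 peaks, and these included enzymes that make the sugar donors. Uap1, which makes UDP-N-acetylglucosamine, was the most secure, with a 12 h fold of 1.56 (95% interval 1.36 to 1.8, limma adjusted p = 0.00305) and peaks at ZT1.8 and ZT13.7. It stood at 25.8 and 25.1 RPKM at ZT0, 15.5 and 20.4 at ZT6, 37.3 and 29 at ZT14 and 15.7 and 16.8 at ZT22, so that the pools at ZT0 and ZT14 lay above those at ZT6 and ZT22. Gfpt1, the entry enzyme of the hexosamine pathway, had a 12 h fold of 1.82 (limma adjusted p = 0.00989), lost without ZT2 (adjusted p = 0.0575). Gmppb, which makes GDP-mannose, had a 12 h fold of 1.81 (limma adjusted p = 0.0135), lost without ZT2 (0.0773) or ZT14 (0.0521). The mannosyltransferase gene Alg2 peaked earliest of these, at ZT0.7 and ZT12.2, with a 12 h fold of 1.59. Its call ended without the first ZT6 pool (limma adjusted p = 0.0587), the first ZT12 pool (0.0512) or any of 7 time points (up to 0.0791). Of 48 vesicle coat and cargo genes 8 were called, among them Golga3 (1.37), a Golgi matrix protein, Sec23b (1.51), a COPII coat subunit, and Arfgap3 (1.7), a regulator of COPI coats. The calls of Sec23b and Arfgap3 ended without any of 15 and 16 single pools. Of 21 translocation genes 2 were called, the signal peptidase subunits Spcs2 (12 h fold 1.28) and Spcs3 (1.39), and the call of Spcs3 ended without ZT6, ZT10, ZT18 or ZT22 (limma adjusted p up to 0.0738).

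Without the 6 pools that held pancreatic transcripts, 3 of the 167 secretory genes were called and 45 had an unadjusted p under 0.05, against 54 called genes (0.572%) and 1893 at an unadjusted p under 0.05 among all 9445. None of the 33 ER chaperones was called by limma then, against 5 to 13 without single pools (5 without the first ZT2 pool), and 13 had an unadjusted p under 0.05. The sizes changed less: across the 31 called secretory genes the 12 h range at its original phase kept a median of 93.3% (59.7% to 118%), and 28 of the 31 had an unadjusted p under 0.05. Those 31 were chosen by a fit that included the same remaining pools, so these values describe them and are no test. The 12 h fold was 1.71 for Hspa5 (limma adjusted p = 0.158), 2.28 for Creld2 (0.176), 1.83 for Manf (0.158) and 2.49 for Dnajb9 (0.0744). Uap1, Herpud1 and Golga3 stayed called (12 h folds 1.62, 1.67 and 1.46, limma adjusted p = 0.0338, 0.023 and 0.0251). The ZT0 pools, whose pancreatic sums were 14.5 and 13.9 RPKM, were already high for Hspa5, Creld2, Dnajb9 and Manf. At ZT4 and ZT16 the pool that held pancreatic transcripts was the higher of its pair for Hspa5 and Creld2. At ZT6 and ZT8 it was the lower for both genes. The fit without the 6 pools has 18 libraries and none at ZT2. Leaving out single pools of any kind gave 17 to 42 called secretory genes, the fewest without the first ZT22 pool, and leaving out single time points gave 11 to 40, the fewest without ZT2. The part of the pancreatic transcripts in these calls was not tested beyond these values.

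**Figure D2:**
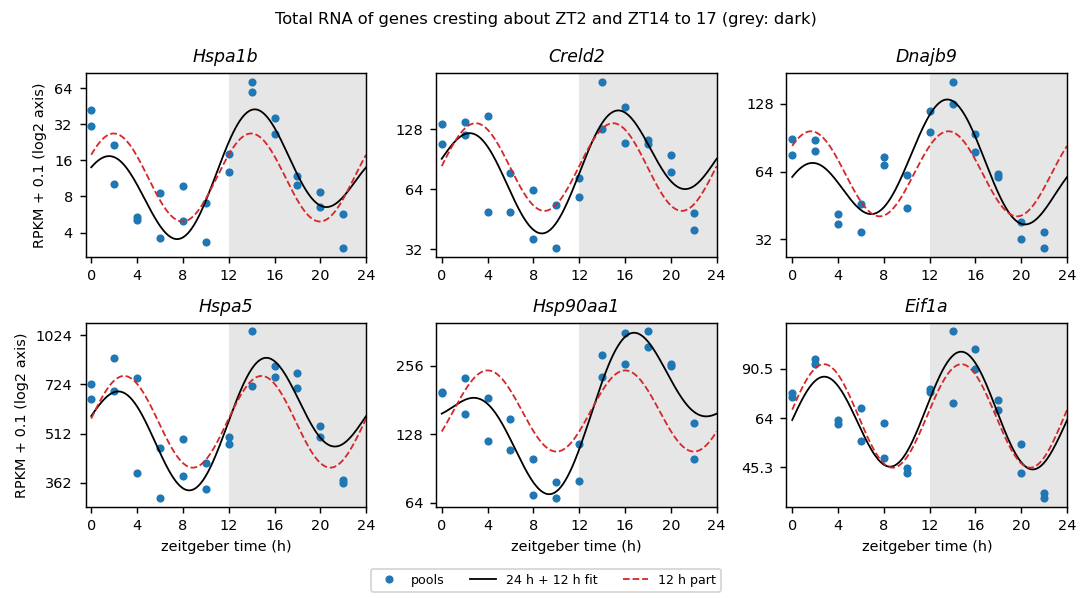
Total RNA of 6 genes with 2 peaks a day. Points are pools (2 per time point, RPKM + 0.1 on a log2 axis) against zeitgeber time in hours, the black line is the fitted 24 h plus 12 h curve and the dashed red line its 12 h part; grey marks darkness. The fitted lower peaks lie between ZT1.6 and ZT2.8 and the higher ones between ZT13.5 (Dnajb9) and ZT16.8 (Hsp90aa1).

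Called cytosolic heat shock genes crested at nearly the same hours. In Hspa1b and Hsp90aa1, as in Hspa5, Creld2 and Dnajb9, the higher fitted peak fell in the dark. Of 32 heat shock genes 12 were called, 37.5% against 5.05% of all genes, 6 had 2 peaks, and all 12 crested in the first 5 h of the 12 h cycle. The list's median 12 h fold was 1.31. Hspa1b (chr17:34956436-34959238, minus strand), the stress-inducible Hsp70, had the largest 12 h fold of any called gene. Its pools measured 31 and 41.8 at ZT0, 21.4 and 10.1 at ZT2, 4.96 and 5.27 at ZT4, 3.49 and 8.41 at ZT6, 4.93 and 9.62 at ZT8 and 7.01 and 3.24 at ZT10 (RPKM) in the light. Through the dark phase they measured 12.7 and 18 at ZT12, 72.9 and 60.1 at ZT14, 36.1 and 26.7 at ZT16, 9.97 and 11.7 at ZT18, 6.39 and 8.58 at ZT20 and 5.6 and 2.85 at ZT22. Both ZT14 pools lay above all others, and the ZT0 pools lay above all others but those at ZT14 and ZT16. This gave a 12 h fold of 5.44 (95% interval 2.79 to 10.6, limma adjusted p = 0.0113), with peaks at ZT1.6 and ZT14.3, and without the ZT14 pools it was 4.21 (adjusted p = 0.0709). The near-identical neighbour Hspa1a was not among the genes tested, and reads of this pair may be split between them.

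Hsp90aa1 (chr12:110690605-110702728, minus strand), the inducible cytosolic Hsp90, peaked later in the dark. From lights on to ZT10 the pools of Hsp90aa1 gave 195 and 195 at ZT0, 227 and 156 at ZT2, 185 and 119 at ZT4, 109 and 149 at ZT6, 99.4 and 68.9 at ZT8 and 79 and 66.7 at ZT10 (RPKM). From ZT12 they gave 79.5 and 116 at ZT12, 285 and 228 at ZT14, 259.6 and 358 at ZT16, 310.0 and 362 at ZT18, 256 and 262 at ZT20 and 143 and 99.3 at ZT22. Its ZT14 to ZT20 pools lay above all others, though only just, at 228 in the second ZT14 pool against 227 in the first ZT2 pool. Its 12 h fold came to 2.28 (95% interval 1.77 to 2.93, limma adjusted p = 0.00263), with peaks at ZT2.8 and ZT16.8. Hsph1, an Hsp110 exchange factor, had a 12 h fold of 2.54 (limma adjusted p = 0.00907) and Hspa8, the constitutive Hsc70, one of 1.9 (0.00934). Hsph1 stood at 40.3 and 39.2 RPKM at ZT0, 18.3 and 14 at ZT10, 67.4 and 83.2 at ZT16 and 19.99 and 16 at ZT22. Those 4 pairs of pools did not overlap with each other except at ZT10 and ZT22.

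The other 6 called heat shock genes had a second maximum that missed the 1.2-fold rule. Hsp90ab1, Stip1, Ahsa1, Ahsa2, Hspa4l and Bag3 encode Hsp90 and its co-chaperones and Hsp70 partners, and their lower maximum stood from 1.03-fold (Hsp90ab1) to 1.19-fold (Ahsa2) above the higher trough. The calls of Bag3 and Ahsa1 ended without any of 18 and 17 single pools and that of Ahsa2 without 1. Those of Hsp90ab1, Stip1 and Hspa4l held without each single pool. Hspa4l had a 12 h fold of 1.85 (limma adjusted p = 0.00263) beside a 24 h fold of 2.33. Without the 6 pancreatic-transcript pools 3 heat shock genes were called, and 21 of the 32 had an unadjusted p under 0.05, against 1893 of all 9445 genes tested. The 12 called genes then kept a median of 90.7% of their 12 h range (72.0% to 130%). They too were chosen by a fit that included the remaining pools, so that share only describes them. The 3 called were Hspa1b (12 h fold 9.18, limma adjusted p = 0.031) and Hspa4l (1.75, 0.0377) and Hspa8 (limma adjusted p = 0.04998), while Hsp90aa1 had a 12 h fold of 2.19 (limma adjusted p = 0.0673). Single pools left out gave 8 to 15 called heat shock genes, the fewest without the first ZT22 pool, and single time points 6 to 16, the fewest without ZT10. Dnaja1, an Hsp40 co-chaperone with a 12 h fold of 1.75, lost its call without any of 6 single pools and Chordc1 (1.9) without any of 5 time points.

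Outside the secretory and heat shock lists, several other genes shared these hours. Eif1a, which encodes a translation initiation factor, had the smallest p among them. In the light, Eif1a stood at 76.5 and 73.9 at ZT0, 93.9 and 96.7 at ZT2, 61.1 and 63 at ZT4, 54.2 and 68.6 at ZT6, 61.6 and 48.1 at ZT8 and 44.8 and 43.2 at ZT10 (RPKM). After lights off the pools stood at 76.9 and 78.5 at ZT12, 118 and 70.9 at ZT14, 104 and 90.2 at ZT16, 72.6 and 67.6 at ZT18, 43.3 and 53 at ZT20 and 37.7 and 36.3 at ZT22. Both ZT2 pools and both ZT16 pools lay above every pool at ZT4 to ZT10 and at ZT18 to ZT22. The 12 h fold was 2.07 (95% interval 1.68 to 2.56, limma adjusted p = 0.00136) beside a 24 h fold of 1.19, the peaks were at ZT2.8 and ZT14.7, and without the pancreatic-transcript pools the fold was 2.1 (adjusted p = 0.0382). Zbtb16, a glucocorticoid-induced transcription factor, had a 12 h fold of 2.11 (limma adjusted p = 0.0139) with peaks at ZT0.7 and ZT13.5. It stood at 18.6 and 19 RPKM at ZT12 and 17 and 18.7 at ZT14, above all other pools, and its call ended without ZT12 (0.0581) or ZT14 (0.0592). Gbp8, an interferon-induced guanylate-binding protein, peaked at ZT2.4 and ZT14.4 with a 12 h fold of 2.32 (limma adjusted p = 0.0047) at a mean of 2.76 RPKM. Tfrc, the transferrin receptor, had a 12 h fold of 1.77 (0.0308), lost without any of 5 single pools. The 2-peak genes in none of the lists at these hours also included Bet1l (12 h fold 1.85) and Golt1b (1.83) of Golgi transport, Ficd (1.7), which modifies BiP, Hspa13 (1.5), a microsomal Hsp70 relative, and Atp2a2 (1.47), the ER calcium pump. These 5 were named after their values were seen, and the calls of Golt1b and Hspa13 ended without any of 16 and 4 single pools, those of Ficd and Atp2a2 without 1 time point each.

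Several genes of secreted plasma proteins had fitted peaks near ZT4 and ZT16, and Orm1 and Prg4 stood highest in the ZT16 pools. Orm1, an acute-phase glycoprotein, stood at 3886 and 4447 RPKM at ZT16 and between 650.0 and 2237 in the other 22 pools. The fitted 12 h fold was 2.07 (limma adjusted p = 0.0386), and the call ended without any of 10 single pools (adjusted p up to 0.0798) and without any of 7 time points. Without the ZT16 pools the fold was 1.53 (limma adjusted p = 0.165). Prg4, a secreted proteoglycan, stood at 44.9 and 45.7 RPKM at ZT16 and at 19.4 or less elsewhere. It had a 12 h fold of 2.19 (limma adjusted p = 0.0481), lost without any of 17 single pools. Without the ZT16 pools its fold was 1.53 (limma adjusted p = 0.205). The summed neutrophil markers, 3 of 9 listed and Ly6g, Elane and Mpo not, were 152 and 172.5 RPKM in the 2 ZT16 pools and 1.57 to 34.5 in the other 22. Crp, C-reactive protein, had a 12 h fold of 1.41 (limma adjusted p = 0.016), lost without ZT12, ZT16 or ZT22 (up to 0.0779). Apoc3, an apolipoprotein that slows triglyceride clearance, crested later, had a 12 h fold of 1.39 (limma adjusted p = 0.00281) and missed the 2-peak rule, and its call held without each single pool, each time point and the pancreatic-transcript pools (adjusted p = 0.023). Named after their values were seen, Cp, ceruloplasmin, and Serpina3c and Serpina3g, of the antichymotrypsin family, had 12 h folds of 1.45, 1.88 and 1.8, and the calls of Cp and Serpina3c ended without any of 16 and 14 single pools while that of Serpina3g held without each pool and time point. Serpina3 genes have near-identical copies, so their values are uncertain. Of 34 acute-phase and plasma protein genes 3 were called, 8.82% against 5.05%, and single pools left out gave 2 to 7.

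Other 2-peak genes crested at ZT8 to ZT12 and ZT20 to ZT24, hours that held 42 and 13 of the 166 in the earlier and later 2 h bins (25.3% and 7.83%), against 21.6% and 15.3% of all genes tested. Ngef (chr1:87476834-87573870, minus strand), a guanine nucleotide exchange factor, was the 2-peak gene with the smallest p. Its pools measured 11 and 11.5 at ZT0, 8.97 and 10.5 at ZT2, 9.47 and 10.4 at ZT4, 10.6 and 10.1 at ZT6, 13.9 and 19 at ZT8 and 20.1 and 20.2 at ZT10 (RPKM) in the light. Through the dark phase they measured 19.9 and 18.3 at ZT12, 13.5 and 15.1 at ZT14, 10.9 and 10.7 at ZT16, 15.9 and 10.7 at ZT18, 14.1 and 14.7 at ZT20 and 14.9 and 15.6 at ZT22. The ZT10 pools and both ZT12 pools lay above all others except the second ZT8 pool, and the ZT20 and ZT22 pools lay above every pool from ZT0 to ZT6. This gave a 12 h fold of 1.67 (95% interval 1.46 to 1.91, limma adjusted p = 4.02e-04), with peaks at ZT10.4 and ZT21.3. Slc5a6 (chr5:31036036-31048924, minus strand), the sodium-dependent multivitamin transporter that takes up biotin and pantothenate, had a fitted curve with a high peak at dusk and a low one at dawn. From lights on to ZT10 the pools of Slc5a6 gave 1.71 and 2.11 at ZT0, 2.63 and 2.58 at ZT2, 1.56 and 2.2 at ZT4, 1.56 and 2.17 at ZT6, 4.36 and 5.13 at ZT8 and 7.0 and 4.65 at ZT10 (RPKM). From ZT12 they gave 6.58 and 6.94 at ZT12, 5.68 and 4.62 at ZT14, 2.09 and 2.07 at ZT16, 1.54 and 0.996 at ZT18, 1.39 and 1.67 at ZT20 and 2.34 and 2.03 at ZT22. Its pools at ZT8 to ZT14 lay above all others, and next came the ZT2 pools, both of which held pancreatic transcripts. Its 12 h fold came to 2.35 (95% interval 1.84 to 3.0, limma adjusted p = 0.00124), beside a 24 h fold of 3.2. Both calls held without the pancreatic-transcript pools (adjusted p = 0.0285 for Ngef and 0.0285 for Slc5a6) and without any single pool or time point. Efna1, a ligand of Eph receptors, peaked at other hours. It stood at 11.3 and 11.6 RPKM at ZT10 and 16.9 and 13.6 at ZT12, below all other pools, and at 38 and 59.3 at ZT4 and 45.4 and 58.7 at ZT18. The fitted 12 h fold was 2.3 (95% interval 1.75 to 3.02, limma adjusted p = 0.00412), with peaks at ZT4.2 and ZT18.3.

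Lipid lists held more calls than the 5.05% of all genes tested. Of 24 cholesterol synthesis genes 5 were called (20.8%), with the 12 h part cresting between 8.19 and 9.53 h of the 12 h cycle, and of 25 genes of fasting and fatty acid oxidation 5 (20.0%), cresting between 7.6 and 10.7 h. Of 18 genes in the fatty acid synthesis list 3 were called (16.7%), namely Insig2, Fads2 and Gpam. They crested between 5.14 and 10.02 h, and none had 2 peaks. Hsd17b7, a late step enzyme of cholesterol synthesis, stood at 23.6 and 25.9 RPKM at ZT4, 35.9 and 26.2 at ZT8, 25.9 and 23.2 at ZT14 and 34.7 and 26.4 at ZT22. It had 2 peaks, at ZT9.6 and ZT21.4, with a 12 h fold of 1.36 (limma adjusted p = 0.0262). Its call ended without the second ZT16 pool (limma adjusted p = 0.0548), the first ZT22 pool (0.0646) or any of 5 time points (up to 0.0854). Among fasting genes, Cyp4a10, a fatty acid omega-hydroxylase, had a 12 h fold of 2.22 (limma adjusted p = 0.0463) with peaks at ZT8.3 and ZT20.7, lost without any of 19 single pools. Its 12 h fold was 3.33 (adjusted p = 0.031) without the pancreatic-transcript pools. Cpt1a, which admits fatty acids to mitochondria, was called (12 h fold 1.36) but missed the 2-peak rule. Its call ended without the second ZT16 pool or either ZT22 pool (limma adjusted p up to 0.0576) and without any of 4 time points (up to 0.101). Without the pancreatic-transcript pools none of the cholesterol genes was called by limma (8 at an unadjusted p under 0.05), and 1 of the fasting genes was (13 at an unadjusted p under 0.05). Of all 9445 genes tested, 1893 then had an unadjusted p under 0.05. Single pools left out gave 2 to 6 called cholesterol genes, the fewest without the second ZT16 pool, and 1 to 7 fasting genes, the fewest without the first ZT22 pool.

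Genes in no list with 12 h crests in the second 6 h of the 12 h cycle, named after their values were seen, included regulators of metabolism. Ppargc1b and Esrra encode a coactivator and a nuclear receptor that act on mitochondrial genes, and had 12 h folds of 2.01 (peaks at ZT9.2 and ZT21.7) and 1.48 (ZT11.5 and ZT22.0). Ppargc1b's call ended without any of 15 single pools, whereas Esrra's held without each pool and each time point. The nuclear receptor genes Nr3c2 and Nr2f2 and the hepatocyte transcription factor gene Cebpa had 12 h folds of 1.63, 1.46 and 1.34, and the call of Nr2f2 ended without any of 17 single pools, that of Nr3c2 without 1 time point. Sgk2, a kinase of the glucocorticoid-induced kinase family, peaked at ZT6.9 and ZT21.2 with a 12 h fold of 1.96 (limma adjusted p = 0.00263), and Arsa, the lysosomal arylsulfatase A, at ZT8.6 and ZT21.5 with 1.61 (0.00243). Bmf, a BH3-only cell death gene, had a 12 h fold of 2.38 (0.037) at a mean of 2.61 RPKM, lost without any of 10 single pools.

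Circadian clock genes were called for 12 h terms without 2 peaks a day. Of 16 core clock genes 6 were called (Dbp, Arntl, Per1, Tef, Clock and Cry2), 37.5% against 5.05%, and none met the 2-peak rule: 4 had 1 maximum, and in Clock and Cry2 the second stood 1.04-fold and 1.11-fold above the trough. Dbp (chr7:45705088-45710203, plus strand), a transcription factor driven directly by the clock, had the strongest 12 h term of these by p. In the light, Dbp stood at 0.625 and 0.687 at ZT0, 1.09 and 0.928 at ZT2, 2.01 and 4.07 at ZT4, 16.5 and 18.8 at ZT6, 47.9 and 78.7 at ZT8 and 72.9 and 80.7 at ZT10 (RPKM). After lights off the pools stood at 43.4 and 42.2 at ZT12, 19.6 and 20.8 at ZT14, 6.46 and 6.74 at ZT16, 4.01 and 3.61 at ZT18, 2.45 and 3.51 at ZT20 and 1.94 and 2.31 at ZT22. The values climbed to a single crest at ZT8 to ZT10 and fell through the night. The fitted 12 h fold was 3.51 (95% interval 2.72 to 4.53, limma adjusted p = 2.44e-05) beside a 24 h fold of 57, and the whole curve had 1 maximum, at ZT9.6. Arntl (chr7:113207465-113314126, plus strand), which encodes BMAL1, lay between 0.545 and 0.758 RPKM in both ZT12 pools and both ZT10 pools and at 19.8 and 19.5 at ZT2. Its 12 h fold was 3.04 (95% interval 2.33 to 3.96, limma adjusted p = 2.26e-04) beside a 24 h fold of 25.2, with 1 maximum at ZT1.9. Per1, a clock repressor that also answers glucocorticoid, had a 12 h fold of 2.64 (0.0193) and 1 maximum at ZT11.6, and Tef, a relative of Dbp, 1.84 (4.02e-04) with 1 at ZT10.7.

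The remaining core clock genes were not called, among them Nr1d1 (12 h fold 1.58, limma adjusted p = 0.371), Per2 (1.33, 0.287) and Cry1 (1.38, 0.133). Of 18 clock-controlled output genes 7 were called and 1, Tfrc, had 2 peaks. The single-peak genes with the largest 12 h folds also included Usp2 (2.63), Elovl3 (1.97), Noct (1.96) and the tubulin gene Tubb2a (1.92). Without the pancreatic-transcript pools Dbp, Arntl and Tef remained called (limma adjusted p = 0.023, 0.014 and 0.023). The call of Per1 ended without the first ZT22 pool (limma adjusted p = 0.0527), without ZT10 (0.0753) or without ZT22 (0.112). That of Clock ended without ZT22 (0.0681), that of Elovl3 without ZT14 (0.0759) and that of Cry2 without any of 9 single pools.

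**Figure D3:**
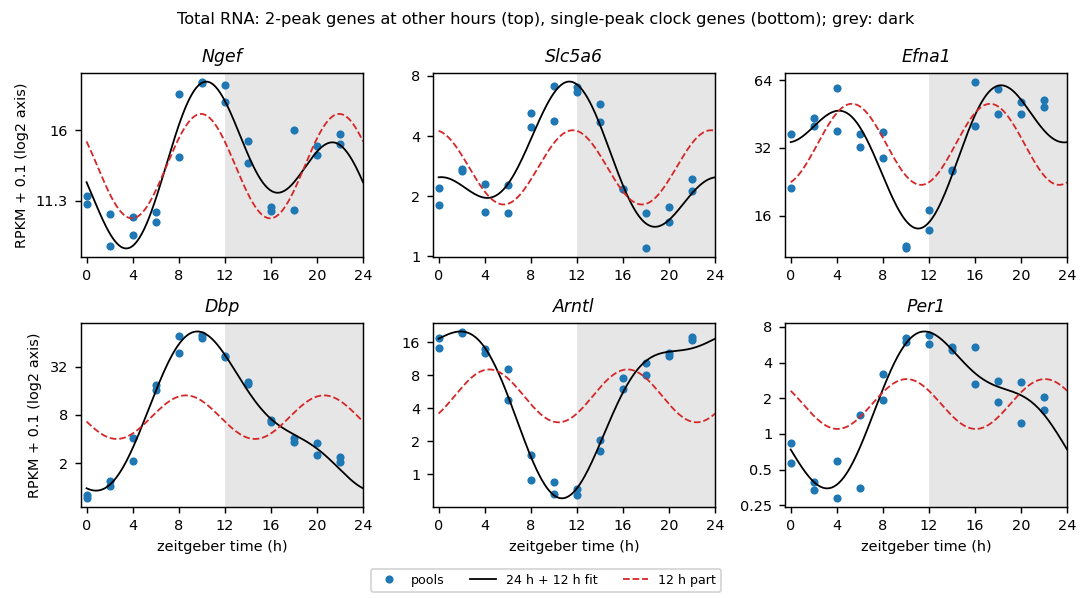
Total RNA of 3 genes with 2 peaks a day at other hours (top row) and 3 clock genes called for 12 h terms with 1 maximum (bottom row). Points are pools (RPKM + 0.1, log2 axis) against zeitgeber time in hours, black lines the 24 h plus 12 h fits and dashed red lines the 12 h parts; grey marks darkness. Ngef has 1 peak at ZT10.4 and 1 at ZT21.3, whereas Dbp, Arntl and Per1 have a 12 h part with 2 crests inside a curve with 1 maximum.

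Of the other lists, glucocorticoid and stress-induced genes (3 of 21, 14.3%), autophagy and lysosome regulators (3 of 27, 11.1%), bile acid genes (2 of 20, 10.0%) and cytosolic aminoacyl-tRNA synthetases (2 of 20, 10.0%) held more calls than the 5.05% of all genes, on 2 or 3 genes each. The rest lay near or below it. Of 41 proteasome subunits 2 were called, of 47 ribosome biogenesis genes 2, of 23 glucose metabolism genes 1 (Pfkfb3, a regulator of glycolysis, with a 12 h fold of 2.17), of 28 mTOR pathway genes 2, of 33 xenobiotic metabolism genes 2 and of 39 splicing factors 3. The splicing factor Tra2a had one of the smaller p-values of the whole table (12 h fold 1.74, limma adjusted p = 0.00114), with a main peak at ZT17.1 and a second maximum only 1.06-fold above its trough. None of 15 immediate early genes and none of 23 cell cycle and DNA damage genes was called by limma in the full set of pools. Of the 166 genes with 2 peaks, 39 were in one of the 25 lists and 127 in none.

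**Figure D4:**
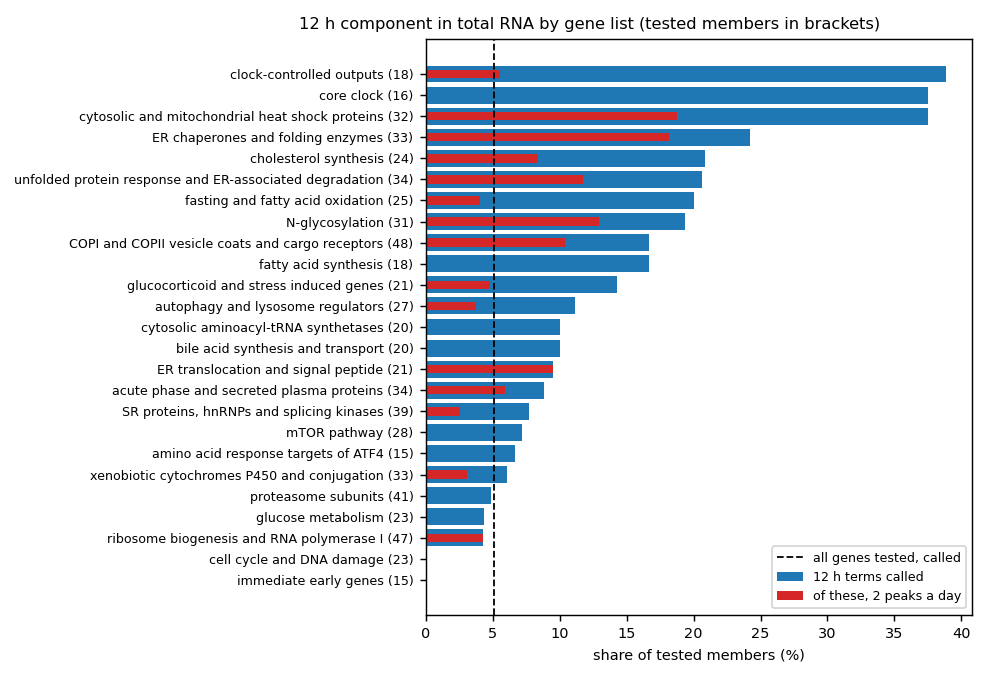
Share of tested members of each gene list (%) called for 12 h terms in total RNA (blue) and, of these, with 2 peaks a day (red); the dashed line is the 5.05% called among all 9445 genes tested. Heat shock, ER, glycosylation and vesicle lists are high in calls and hold 4 to 6 2-peak genes each, except ER translocation with 2, whereas the core clock list is high in calls and holds none.

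Ribosome footprints of the same lysates, which count RNA fragments protected by translating ribosomes, were fitted in the same way. In them 424 genes (4.49%) were called and 94 (0.995%) had 2 peaks a day. The assays shared 168 called genes, 35.2% of the total RNA calls and 39.6% of the footprint calls. Of the 166 genes with 2 peaks in total RNA, 58 were called in footprints and 33 met the 2-peak rule there too. The footprint crest lay within 1 h of the total RNA crest in 139 of the 166 (83.7%) and more than 3 h away in 3. The lysates are shared, so pool-to-pool variation is common to both assays and the second assay is not an independent set of animals.

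The leading secretory and heat shock genes also swung in footprints. The footprint 12 h fold was 5.55 for Hspa1b, 2.85 for Creld2, 2.67 for Hsph1, 2.33 for Dnajb9, 2.06 for Hsp90aa1 and 1.77 for Hspa5 (limma adjusted p = 0.0142, 0.0126, 0.0108, 0.0064, 0.00191 and 0.0254). Hspa5 footprints stood at 1047 and 907 RPKM at ZT2, 611 and 402 at ZT10, 1149 and 879 at ZT14 and 475 and 475 at ZT22, so that the ZT2 and ZT14 pools lay above those at ZT10 and ZT22. Over the 5 secretory lists 28 of 167 genes were called in footprints and 18 in both assays, and of 32 heat shock genes 15 and 9. Of all 9445 genes tested, 424 (4.49%) were called in footprints and 168 in both assays. Of 2-peak genes cresting in the first 5 h of the 12 h cycle 43 of 90 were called in footprints, and of those cresting at other hours 15 of 76. Gbp8 had a footprint 12 h fold of 1.38 (limma adjusted p = 0.289), at a mean of 1.18 RPKM in footprints, and Gar1, of the small nucleolar RNA machinery, 1.1 (0.754) against 2.03 in total RNA.

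The 12 h fold was smaller in footprints than in total RNA in 138 of the 166 genes, with a median of 1.31 against 1.51. The genes were chosen by their total RNA values, so this direction is a description and no test of the 2 assays. Tested directly, as the 12 h terms of the footprint minus total RNA difference within each lysate pool, limma called 0 of the 9445 genes, with 1001 at an unadjusted p under 0.05 and a lowest adjusted p of 0.223. The unpaired interaction of assay and 12 h terms called 0 as well, with 466 at an unadjusted p under 0.05. A difference that misses the threshold does not show that the assays are alike. In the genes that both assays called, the median delay of the footprint crest after the total RNA crest was -0.0482 h, with quartiles of -0.419 and 0.207 h.

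**Figure D5:**
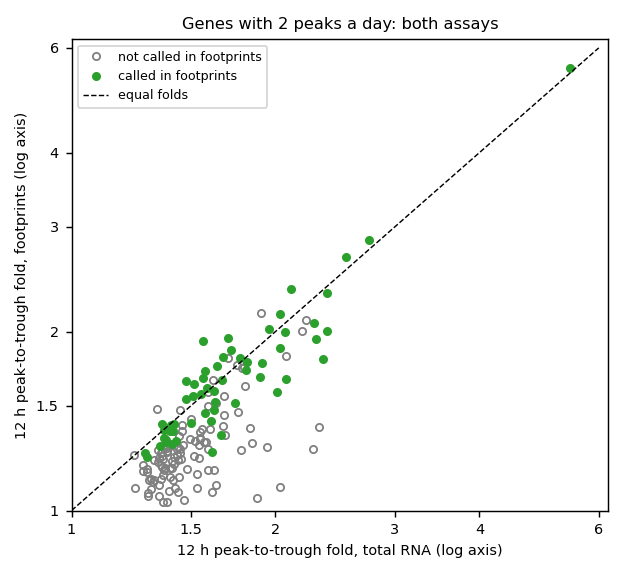
The 12 h crest-to-trough fold of the 166 genes with 2 peaks a day, in total RNA (x, log axis) and footprints (y, log axis). Green points are the 58 genes called in footprints, open grey points the others; the dashed line marks equal folds, and 138 of the 166 points lie below it.

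The number of calls depended on single pools and time points. Of the 477 called genes 188 stayed called without each of the 24 pools in turn, and of the 166 with 2 peaks 72 stayed called and 42 kept 2 peaks. Leaving out a single pool gave between 229 and 656 calls, the fewest without the first ZT22 pool (229), then without the first ZT2 pool (276), the second ZT22 pool (288) and the first ZT10 pool (308). For 2 peaks a day these counts were 80 without the first ZT22 pool, 88 without the first ZT2 pool, 91 without the second ZT22 pool and 109 without the first ZT16 pool. Without the 6 pancreatic-transcript pools 54 genes were called, 51 of them among the 477, and 32 had 2 peaks, 19 of them among the 166. Of the 166 genes, 20 then stayed called and 160 had an unadjusted p under 0.05, against 1893 of all 9445 genes tested. None of the 166 crested on the opposite side of the 12 h cycle, and the 12 h range at the original phase kept a median of 103% (quartiles 92.8% and 112%). The fit that chose the 166 included the same remaining pools, so these values describe them and are no test. Adding 8 h terms to the fit called no gene for those terms in limma, with 697 at an unadjusted p under 0.05.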

How the data were processed

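Total RNA (Ribo-Zero) and ribosome footprint (ARTseq) libraries were made from the same liver lysate pools, per the labels' protocols. The authors deposited 1 RPKM value per gene and library. Named in the submitters' processing notes were CASAVA, cutadapt, Bowtie2 2.2.1, TopHat2 2.0.11, Cufflinks 2.2.1 and edgeR, with the build GRCm38.p2. The part each tool played, and any scaling between libraries, is not given in the sources used here. In total RNA 11155 genes were listed and 10829 in both assays.

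Gene symbols and coordinates came from GENCODE M21 (GRCm38), which matched all 11306 listed genes. Depth was estimated from whole-read steps of RPKM times coding length: 67.1% to 74.2% of low values in total RNA fell within 0.04 of a whole number, against 8% by the width of that window. The steps were not clean enough for a count test. The 24 total RNA libraries were fitted in R 4.3.3 with limma 3.58.1 (moderated F test of the 12 h cosine and sine beside the 24 h pair, variance trend, Benjamini-Hochberg over 9445 genes), and intervals are 95%. Curves were read every 0.1 h. Python 3.11.15, numpy 2.4.6, pandas 2.3.3 and matplotlib 3.10.9 served for the rest. The fit was tested on simulated data.

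Same-numbered pools of different times had no common deviation over the day (correlation over 66 pairs of times -0.426 to 0.327, median 0.0124). Single pairs of times did correlate, 9 of the 66 above 0.1. The replicate number was not used as a block in the main fit. The 2 libraries of a lysate pool deviated together (0.160 to 0.683 at 12 of 12 times), so assays were compared within pools. A pool was counted as holding pancreatic transcripts when its summed acinar markers passed 10 times the median pool.

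The genes, lists and tests were chosen with earlier results of these data known. Genes are named if they are among the 20 widest 2-peak genes, the 10 called genes with the smallest p, called list members with a 12 h fold of at least 1.3, the 8 widest single-peak called genes, or members of the ER chaperone and core clock lists. Others are marked where named, and some genes that meet the rule are not reported here. Alternatives tried were other pseudocounts, filters, scalings, variance models, harmonics and thresholds, and leaving out pools or times.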

Additional observations from a re-analysis of the deposited data

How the results depend on the processing

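The 477 total RNA calls became 78 at an adjusted p under 0.01, 133 with a 12 h fold of at least 1.5 required, 54 without the pools holding pancreatic transcripts, 229 to 656 without single pools and 198 to 846 without single time points, the fewest without ZT22. The 166 genes with 2 peaks became 300 with the lower peak at least 1.1-fold above the higher trough, 19 at 1.5-fold, 32 without the pancreatic-transcript pools, 80 to 233 without single pools and 63 to 258 without single time points, the fewest again without ZT22. The 424 footprint calls became 29 without those 6 pools, 226 to 599 without single pools and 123 to 447 without single time points, the fewest without ZT14. The 4473 genes called for 24 h terms became 2467 without those 6 pools, 4129 to 4582 without single pools and 3715 to 4805 without single time points. With the 12 h terms fitted alone and the 24 h rhythm left in the residual, 2 genes were called in total RNA, both with 2 peaks, and 0 in footprints. The assay difference stayed at 0 calls in each of these except without ZT0, where it was 1. Pseudocounts of 0.01 and 1, a minimum mean of 5 RPKM or none, a common upper quartile, quantile normalization, no variance trend, array weights and added 8 h terms gave 380 to 672 calls and 133 to 212 genes with 2 peaks. Among the 123 genes picked by the naming rule, none of those called in the full set of pools reversed its 12 h phase under any of these settings. Reversal was not scored in those that were not called. Of the 123, 65 fell below the threshold without the pancreatic-transcript pools and 86 with the 12 h terms alone.

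Pool numbers do not pair times, and a replicate block on them gave 409 calls in total RNA, 149 genes with 2 peaks, 393 calls in footprints, 4427 for 24 h terms and 0 for the assay difference.

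Depth limits the genes near 1 to 3 RPKM, where the shallowest library, at 3.67 M reads, listed 112 genes at 0. With 12 times over 1 day, a rhythm of 12 h and a daily event at 2 hours cannot be told apart.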

Other observations

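Some genes of nuclear RNA processing also had 2 peaks a day, at the hours of the ER genes, and most of those given here were named after their values were seen. Nop14 and Nol10, which take part in ribosomal RNA processing, had 12 h folds of 1.43 and 1.52 (limma adjusted p = 0.0059 and 0.0332). Luc7l, Sf3a1, Srek1 and Nktr, linked to splicing, had 12 h folds of 1.48, 1.3, 1.34 and 1.34. The call of Nop14 held without each single pool and time point, while that of Luc7l ended without any of 10 single pools, Sf3a1 9, Nol10 5, Nktr 5 and Srek1 none of them but 1 time point. Of these 6 genes 1, Luc7l, was called in footprints (12 h fold 1.65, limma adjusted p = 0.0191). Of 39 genes in the splicing list 3 were called and of 47 in the ribosome biogenesis list 2, which is near the 5.05% of all genes tested. Without the pools holding pancreatic transcripts, 15 of the 39 and 15 of the 47 had an unadjusted p under 0.05, against 1893 of all 9445 genes tested.

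A few genes of bile acid and lipid handling and of lysosomes had 2 peaks as well, and were also named after their values were seen. Slc10a2, the sodium-dependent bile acid transporter, peaked at ZT3.3 and ZT16.0 with a 12 h fold of 1.8 (limma adjusted p = 0.0356), at a mean of 25.6 RPKM. Lpcat3, a phospholipid remodelling enzyme, and Acaa1b, a peroxisomal thiolase, had 12 h folds of 1.37 and 1.55 with peaks at ZT7.9 and ZT20.1 and at ZT9.0 and ZT22.2. Lipe, hormone-sensitive lipase, and Glb1, lysosomal beta-galactosidase, had 12 h folds of 1.45 and 1.31. Acaa1b has a close relative, Acaa1a, and reads may be shared between them. The call of Lpcat3 held without each single pool and ended without 2 time points (adjusted p up to 0.0642), and those of the other 4 ended without any of 7 (Acaa1b), 9 (Slc10a2), 18 (Lipe) and 19 (Glb1) single pools.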
